A study of Homo sapiens with 8 samples.

Results

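Of the genes of the insulin-like growth factor (IGF) and insulin pathway, 10 were followed through RNA sequencing of HaCaT, an established human keratinocyte line that divides without limit in culture. They were IGFBP2, IGFBP3, IGFBP4, IGFBP6 and IGFBP7, which encode secreted IGF binding proteins, IGF1R, IGF2R and INSR, which encode receptors, and IRS1 and IRS2, which encode receptor substrates. They were found by symbol among the 24252 genes of each table, and each symbol occurred once. There were 8 libraries, 4 of Control cells and 4 labelled OGD-R, in which oxygen and glucose were withdrawn and the cells then reoxygenated. The labels place OGD-R at an early stage, name no drug or genetic change in either group, and the duration of each step was not given in the sources used here. All cells were of the same line, and the labels do not say whether replicates were separate cultures, so the p-values reflect only how far these libraries spread, and that spread may be technical.

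IGF1 and IGF2 act through the IGF1 receptor, and insulin through the insulin receptor, both tyrosine kinases of the cell surface. The activated receptors phosphorylate the docking proteins IRS1 and IRS2, which recruit PI3 kinase, and the kinase AKT then promotes growth through mTOR and keeps FOXO transcription factors out of the nucleus. Binding proteins hold IGFs outside the cell and control how much reaches the receptor, and skin keratinocytes need insulin or IGF1 to proliferate in serum-free culture.

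For 5 genes whose RNA separated the groups or the Controls, the sequence before the start site is shown, so that promoters of genes with unlike patterns can be compared. RefSeq (GRCh38.p14) promoter entries were found for 9 of the 10 genes, all but IGFBP7. The 250 bases before the annotated start, 5′ to 3′ on the gene's strand, are printed for IGFBP3 (chr7:45921273-45921522, minus strand), IGFBP6 (chr12:53097417-53097666, plus strand), IGF2R (chr6:159968832-159969081, plus strand), IRS1 (chr2:226799821-226800070, minus strand) and IRS2 (chr13:109786584-109786833, minus strand). Capitals mark matches on either strand to ACGTG, a form of the core bound by hypoxia-inducible factor, and TGTTTAC, a core bound by forkhead factors such as FOXO. They also mark TATAAA, a form of the TATA box, and GGGCGG, the GC box. Only these exact letters were searched, so other forms, such as GCGTG for the hypoxia core, are left unmarked.

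IGFBP3: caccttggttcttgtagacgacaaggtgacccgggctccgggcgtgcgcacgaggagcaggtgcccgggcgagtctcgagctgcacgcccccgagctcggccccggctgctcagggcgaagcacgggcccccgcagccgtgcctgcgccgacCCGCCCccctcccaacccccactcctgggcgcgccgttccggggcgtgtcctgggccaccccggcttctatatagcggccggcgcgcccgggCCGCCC
IGFBP6: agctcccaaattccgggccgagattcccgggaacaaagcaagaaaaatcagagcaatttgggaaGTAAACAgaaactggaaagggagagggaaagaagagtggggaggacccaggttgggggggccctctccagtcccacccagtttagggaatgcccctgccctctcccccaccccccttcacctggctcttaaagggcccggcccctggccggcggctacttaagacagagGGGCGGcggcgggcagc
IGF2R: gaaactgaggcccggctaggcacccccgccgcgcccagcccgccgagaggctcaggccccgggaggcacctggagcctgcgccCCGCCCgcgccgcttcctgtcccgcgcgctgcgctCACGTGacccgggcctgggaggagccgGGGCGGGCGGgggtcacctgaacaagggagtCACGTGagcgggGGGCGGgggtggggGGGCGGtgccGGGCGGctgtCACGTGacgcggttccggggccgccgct
IRS1: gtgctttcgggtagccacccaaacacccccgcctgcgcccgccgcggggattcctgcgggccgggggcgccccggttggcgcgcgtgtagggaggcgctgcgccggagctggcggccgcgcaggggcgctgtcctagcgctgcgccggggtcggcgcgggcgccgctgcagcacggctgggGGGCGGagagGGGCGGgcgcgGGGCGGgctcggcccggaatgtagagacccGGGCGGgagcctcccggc
IRS2: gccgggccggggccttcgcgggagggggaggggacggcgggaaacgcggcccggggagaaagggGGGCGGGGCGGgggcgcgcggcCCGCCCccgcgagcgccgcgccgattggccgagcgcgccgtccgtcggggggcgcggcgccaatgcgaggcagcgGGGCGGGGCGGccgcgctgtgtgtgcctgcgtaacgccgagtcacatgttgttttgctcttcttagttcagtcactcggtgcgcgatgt

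These promoters were rich in G and C, from 61.2% of bases in IGFBP6 to 80.8% in IRS1. GC boxes were present in all 5, and in 42.6% of the 35116 human windows of the same length. The ACGTG form of the hypoxia core was found in IGF2R, as 3 sites that each read CACGTG and so match on both strands. Among the other genes with a promoter entry ACGTG was found in IGF1R alone, 146 bases before the start, and 18.5% of windows hold it. The GCGTG form was not searched, and it occurs unmarked in the IGFBP3 and IRS1 windows. A forkhead core was found in IGFBP6, 186 bases before the start, and 2.98% of windows hold it. TATAAA was absent from the 5 printed windows, but other forms of the TATA box were not searched. The RefSeq starts differ from the GENCODE 29 gene spans given with each gene: the IGFBP3 window and nearly all of the IGFBP6 window, the forkhead core included, lie inside those spans. A match of letters is a description and does not show that a factor binds there.

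The OGD-R libraries resembled each other, whereas the Control libraries formed 2 pairs. Across the 11740 genes tested, log2 values correlated at 0.992 between Controls 1 and 2 and at 0.991 between Controls 3 and 4, but between 0.874 and 0.881 across those pairs. These correlations run over genes, which are not independent replicates. With OGD-R, Controls 1 and 2 correlated at 0.940 to 0.947 and Controls 3 and 4 at 0.879 to 0.887. Values were read as FPKM (fragments scaled by transcript length and by the library total), which allow levels of different genes to be compared. The spacing of the lowest values implied a depth from about 16800000 fragments in Control 4 to about 24900000 in Control 1. All 10 keratinocyte markers had a mean above 1 FPKM, with a summed level of 7821 to 8679 FPKM in Control and 11220 to 12330 FPKM in OGD-R. Of these 10 markers, limma called 3 higher and 2 lower and did not call 5. Among all genes tested it called 10.2% higher and 9.69% lower. The basal keratin KRT5 was at 2505 ± 486 FPKM in Control and 4973 ± 116 FPKM in OGD-R, and its partner KRT14 at 3830 ± 243 and 5104 ± 322 FPKM (SD, n = 4 each), and both make up most of the sum. The 2 markers called lower were ITGB4, at 175 ± 32.9 and 101 ± 6.09 FPKM, and SFN, at 925 ± 254 and 567 ± 34.1 FPKM (SD, n = 4 each). Of the 8 fibroblast markers COL1A1 alone had a mean above 1 FPKM, with COL1A2 at 0 in every library and a summed level of 0.916 to 8.72 FPKM in Control and 3.85 to 5.08 FPKM in OGD-R. Of the 5 immune markers CD68 alone did, at 12.3 to 16.7 FPKM in Control and 2.94 to 3.74 FPKM in OGD-R, whereas the leukocyte marker PTPRC did not exceed 0.0245 FPKM. The 6 melanocyte and 5 endothelial markers summed to at most 0.699 and 0.463 FPKM in any library. ITGB4, SFN, COL1A1, CD68 and PTPRC were named after their values were seen. The part of these differences in the results was not tested. In bulk RNA, fewer cells of a type and less RNA per cell cannot be told apart.

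IGFBP3 and IGFBP6 RNA rose and IGFBP7 and IRS1 RNA fell in OGD-R. IGFBP3 showed the largest difference of these, with a mean 3.35 times that of Control, and IGFBP6 1.44 times. IGFBP7 was at 0.769 times and IRS1 at 0.487 times the Control mean. Of the 10 genes, 8 had a mean of at least 1 FPKM and were tested with limma on log2(FPKM + 1); 2 were called higher and 2 lower at a Benjamini-Hochberg adjusted p of 0.05. Of all 11740 genes tested, 10.2% were called higher and 9.69% lower, 19.9% in all. With mitochondrially encoded genes left out of the scaling, the calls over all genes split into 1599 higher and 870 lower, against 1202 and 1138. The median log2 fold change of the 8 genes was -0.28, and that of all genes tested 0.02. The OGD-R libraries lay wholly above the Controls for 3 of the 10 genes and wholly below for 3, so 6 of 10 did not overlap. Among all genes tested 15.2% lay above, 14.8% below and 30.0% either way. The sets differ, because the 10 include IGFBP2, which lay above, and INSR, which overlapped, and neither was among the genes tested.

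**Figure D1:**
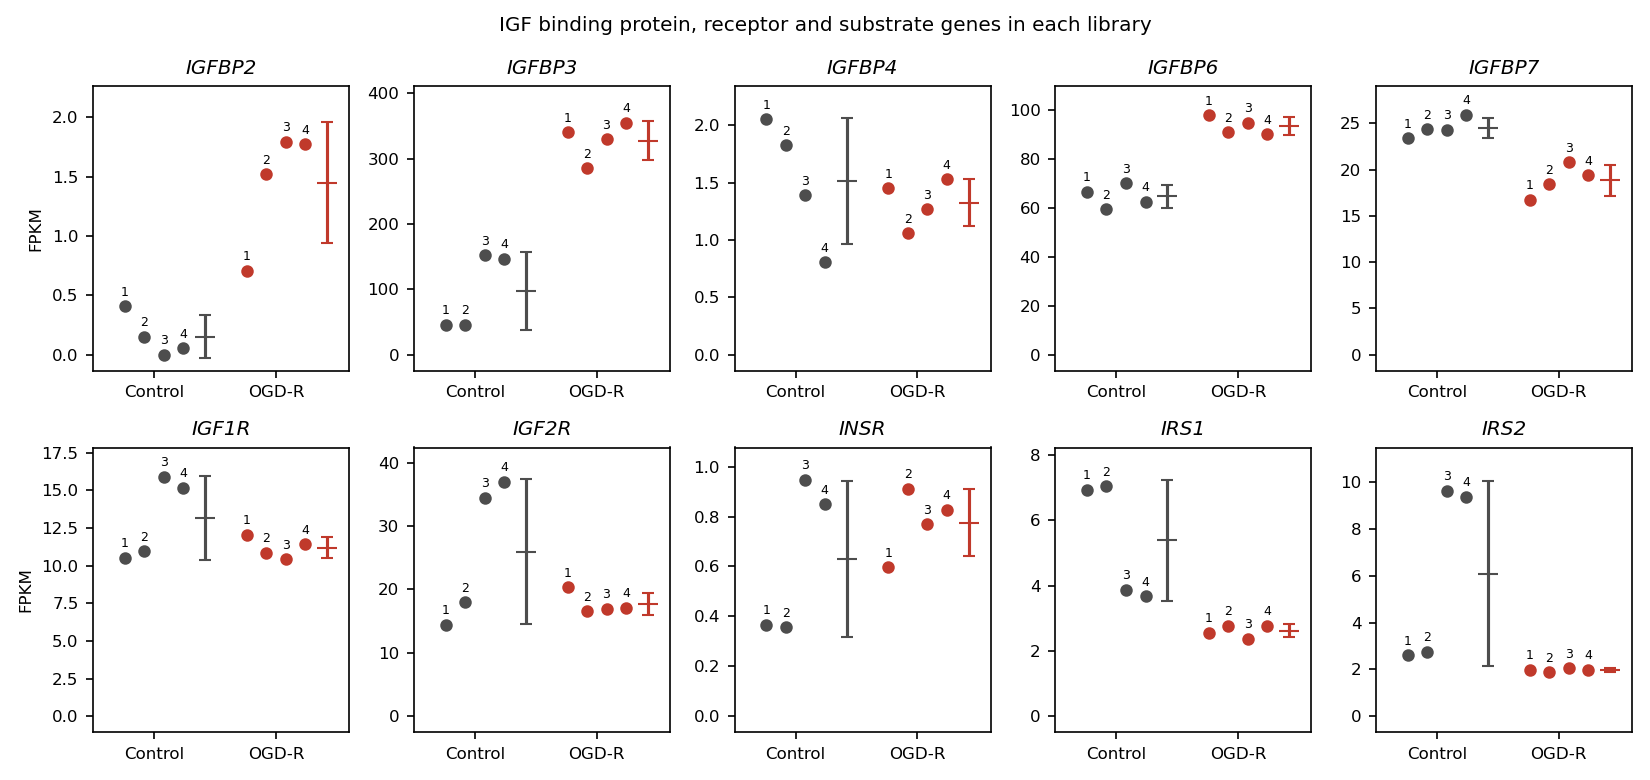
FPKM of each of the 10 genes (vertical axis, FPKM, own scale per panel) in 4 Control and 4 OGD-R libraries, with numbered points for libraries and a bar beside them for mean and SD. IGFBP6 and IGFBP7 were close among Controls, whereas IGFBP3, IGF2R, IRS1 and IRS2 fell into the pairs Controls 1 and 2 and Controls 3 and 4.

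The ligand genes were at or near 0. INS was at 0 FPKM in all 8 libraries. IGF1 was at 0 in all 4 Controls and at no more than 0.00698 FPKM in OGD-R. IGF2 was at 0.0555, 0.0919, 0.161 and 0.0862 FPKM across Controls 1 to 4 and between 0 and 0.0686 FPKM in OGD-R, so the groups overlapped. Of the binding proteins outside the set of 10, IGFBP1 did not exceed 0.0421 FPKM and IGFBP5 did not exceed 0.0059 FPKM in any library. Their means were below 1 FPKM, and when every detected gene was tested limma called none of IGF1, IGF2, IGFBP1 and IGFBP5 (adjusted p between 0.125 for IGF2 and 0.921 for IGFBP5).

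Among the binding proteins, IGFBP3, which carries most IGF in the circulation and also acts on cells without IGF, was the most abundant in OGD-R. The gene (ENSG00000146674) lies on chromosome 7, 45912245 to 45921874, minus strand (GENCODE 29, GRCh38). IGFBP3 was at 45.9, 46.2, 152 and 147 FPKM across Controls 1 to 4 and at 340.2, 285, 330.0 and 355 FPKM in OGD-R 1 to 4. All OGD-R libraries lay above all Controls, and Controls 3 and 4 lay between Controls 1 and 2 and OGD-R. Its log2 fold change was 1.96 ± 0.42 (SE; limma adjusted p = 0.0151). The size depended on the Controls kept: it was 2.80 ± 0.08 (SE) against Controls 1 and 2 and 1.12 ± 0.09 (SE) against Controls 3 and 4. In fits with 1 Control pair, limma called 55.5% of all genes without Controls 3 and 4 and 67.8% without Controls 1 and 2, so a call there is common.

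IGFBP6, a binding protein that prefers IGF2, was the most even of the rising genes. The gene (ENSG00000167779) lies on chromosome 12, 53097436 to 53102345, plus strand. IGFBP6 was at 66.5, 59.5, 70.0 and 62.5 FPKM across Controls 1 to 4 and at 97.8, 90.8, 94.7 and 90.1 FPKM in OGD-R 1 to 4. The Control pairs did not separate and all OGD-R libraries lay higher. The log2 fold change was 0.53 ± 0.08 (SE; limma adjusted p = 0.00416), with 0.56 against Controls 1 and 2 and 0.49 against Controls 3 and 4.

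IGFBP7, which binds IGFs weakly and is deposited in the matrix around vessels, was lower in OGD-R. The gene (ENSG00000163453) lies on chromosome 4, 57030773 to 57110385, minus strand. IGFBP7 was at 23.4, 24.4, 24.3 and 25.9 FPKM across Controls 1 to 4 and at 16.7, 18.4, 20.8 and 19.4 FPKM in OGD-R 1 to 4. The 4 Controls lay together, above every OGD-R library. On the log2 scale it fell by 0.37 (SE 0.0901), with a limma adjusted p = 0.0251. This call was lost when OGD-R 1, OGD-R 2 or OGD-R 4 was left out (limma adjusted p = 0.0735, 0.0819 and 0.0657) and when mitochondrially encoded genes were left out of the scaling (limma adjusted p = 0.0773). Without OGD-R 1, OGD-R 2 or OGD-R 4 its log2 fold change was -0.313, -0.357 and -0.381. Over all genes 669, 586 and 630 were called lower in those fits, against 1138 with all libraries.

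IGFBP2 and IGFBP4 were near the lower limit. IGFBP2 (ENSG00000115457, chromosome 2, 216632828 to 216664436, plus strand), which carries an integrin binding motif, was at 0.410, 0.152, 0 and 0.0533 FPKM across Controls 1 to 4. In OGD-R 1 to 4 it was at 0.709, 1.52, 1.79 and 1.77 FPKM, above all Controls. On its longest coding transcript of 1439 bases, these values amount to about 14.7, 5.19, 0 and 1.29 fragments in the Controls and 19.8, 48.6, 55.1 and 51.6 in OGD-R. Its mean was under 1 FPKM, and when every detected gene was tested its log2 fold change was 1.07 ± 0.18 (SE; limma adjusted p = 0.00935), with 13.2% of 21214 genes called. IGFBP4 (ENSG00000141753, chromosome 17, 40443461 to 40457731, plus strand), an inhibitor of IGF action that proteases inactivate, was at 2.05, 1.82, 1.39 and 0.805 FPKM across Controls 1 to 4 and at 1.45, 1.06, 1.27 and 1.53 FPKM in OGD-R 1 to 4. The groups overlapped, and it was not called (limma adjusted p = 0.748). It was lower against Controls 1 and 2 (log2 fold change -0.34, limma adjusted p = 0.0309) and not called against Controls 3 and 4 (0.16, limma adjusted p = 0.329).

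The summed RNA of the 5 binding proteins was at 138, 132, 248 and 236 FPKM across Controls 1 to 4 and between 397 and 468 FPKM in OGD-R. IGFBP3 made up 33.2%, 35.0%, 61.3% and 62.2% of that sum in Controls 1 to 4 and 71.8% to 75.9% in OGD-R. IGFBP6 made up 26.5% to 48.1% in Control and 19.3% to 22.9% in OGD-R, although its own level was higher in OGD-R. In Controls 1 and 2 IGFBP6 exceeded IGFBP3, with a ratio of IGFBP3 to IGFBP6 of 0.690 and 0.777, and in all other libraries IGFBP3 was the higher, with ratios of 2.17 and 2.35 in Controls 3 and 4 and 3.14 to 3.94 in OGD-R. IGFBP3 thus took first place by level in 6 libraries, and in OGD-R its mean exceeded that of 98.7% of the genes tested.

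**Figure D2:**
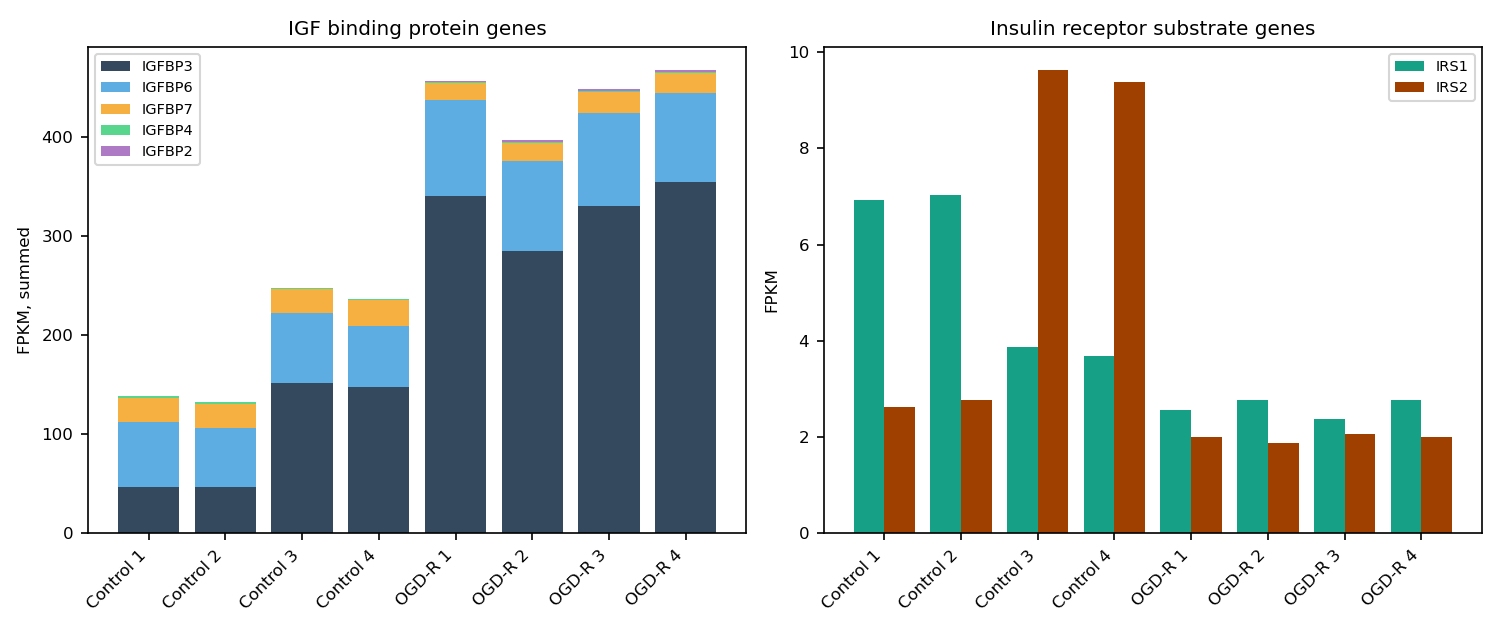
Left, FPKM of 5 IGF binding protein genes stacked by library (vertical axis, summed FPKM); right, FPKM of IRS1 and IRS2 by library (vertical axis, FPKM). IGFBP3 took 33.2% to 62.2% of the stack in Control and 71.8% to 75.9% in OGD-R, and IRS2 exceeded IRS1 in Controls 3 and 4 alone.

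Of the 12 listed genes for ligands and other extracellular regulators, 2 reached a mean of 1 FPKM, and 1 of these rose and 1 fell (10.2% of all genes were higher and 9.69% lower). OGD-R lay wholly above Control for 1 of the 12 and wholly below for 2, and the other genes overlapped. Among all genes tested 15.2% lay above and 14.8% below. STC2, stanniocalcin 2, which inhibits the IGFBP4 protease pappalysin, was at 11.2, 12.8, 11.1 and 10.3 FPKM across Controls 1 to 4 and between 3.01 and 3.80 FPKM in OGD-R. On the log2 scale it fell by 1.46 (SE 0.1), with a limma adjusted p = 0.0001. HTRA1, a secreted serine protease that cleaves IGF binding proteins, rose from 3.85 ± 1.03 FPKM to 8.02 ± 0.582 FPKM (SD, n = 4 each), which is 0.91 ± 0.15 in log2 (SE; limma adjusted p = 0.00439). PAPPA, the pappalysin gene, was named after its values were seen. It was at 0.815, 0.733, 2.54 and 2.59 FPKM across Controls 1 to 4 and at 0.197, 0.112, 0.0912 and 0.150 FPKM in OGD-R 1 to 4, wholly below the Controls. Its mean was below 1 FPKM, and when every detected gene was tested its log2 fold change was -1.15 ± 0.26 (SE; limma adjusted p = 0.0287).

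None of the receptor genes was called, and for IGF1R and IGF2R the OGD-R libraries lay near Controls 1 and 2 and below Controls 3 and 4. IGF1R (ENSG00000140443, chromosome 15, 98648539 to 98964530, plus strand), the signalling receptor of IGF1 and IGF2, was at 10.5, 10.9, 15.9 and 15.2 FPKM across Controls 1 to 4. In OGD-R 1 to 4 it was at 12.04, 10.9, 10.4 and 11.4 FPKM, so the groups overlapped. The log2 fold change was -0.19 ± 0.14 (SE; limma adjusted p = 0.380) with all libraries, 0.053 against Controls 1 and 2 (limma adjusted p = 0.579) and -0.44 against Controls 3 and 4 (limma adjusted p = 0.000643).

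IGF2R (ENSG00000197081, chromosome 6, 159969099 to 160113507, plus strand), the mannose 6-phosphate receptor that takes IGF2 to lysosomes, showed the wider spread. It was at 14.4, 18.0, 34.4 and 37.0 FPKM across Controls 1 to 4 and at 20.3, 16.6, 17.0 and 17.1 FPKM in OGD-R 1 to 4. OGD-R overlapped Controls 1 and 2 and lay below Controls 3 and 4. The log2 fold change was -0.42 ± 0.29 (SE; limma adjusted p = 0.342) with all libraries, 0.13 (limma adjusted p = 0.336) against Controls 1 and 2 and -0.97 (limma adjusted p = 1.01e-05) against Controls 3 and 4.

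INSR (ENSG00000171105, chromosome 19, 7112255 to 7294034, minus strand), the insulin receptor gene, was lowest of the receptors. It was at 0.368, 0.357, 0.947 and 0.851 FPKM across Controls 1 to 4 and at 0.596, 0.912, 0.769 and 0.828 FPKM in OGD-R 1 to 4. All OGD-R libraries lay above Controls 1 and 2 and below Control 3, and OGD-R 2 lay above Control 4. Its mean was too low for the main test, and with every detected gene tested it was not called (log2 fold change 0.14 ± 0.14, SE; limma adjusted p = 0.555). IGF1R exceeded INSR in every library, by 28.6, 30.7, 16.8 and 17.8 times in Controls 1 to 4 and by 11.9 to 20.2 times in OGD-R.

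Both substrate genes lay lower in OGD-R than in any Control, and they split the Controls in opposite directions. IRS1 (ENSG00000169047, chromosome 2, 226731317 to 226799759, minus strand), a main docking protein of both receptors, was at 6.93, 7.04, 3.87 and 3.68 FPKM across Controls 1 to 4. In OGD-R 1 to 4 it was at 2.56, 2.77, 2.38 and 2.77 FPKM. On the log2 scale IRS1 fell by 0.77 (SE 0.199), with a limma adjusted p = 0.0296, and by 1.14 against Controls 1 and 2 and 0.40 against Controls 3 and 4. The call was lost when Control 1 (limma adjusted p = 0.0521) or any 1 OGD-R library was dropped (limma adjusted p between 0.0725 and 0.0885). Over all genes 565 to 669 were called lower with 1 OGD-R library dropped and 1321 with Control 1 dropped, against 1138 with all libraries.

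IRS2 (ENSG00000185950, chromosome 13, 109752698 to 109786568, minus strand), its paralogue, which FOXO factors activate in several tissues, was at 2.62, 2.76, 9.63 and 9.37 FPKM across Controls 1 to 4. In OGD-R 1 to 4 it was at 1.99, 1.87, 2.06 and 1.995 FPKM, below all Controls. With the wide spread of the Controls it was not called, its log2 fold change being -1.06 ± 0.38 (SE; limma adjusted p = 0.0867). It was -0.31 against Controls 1 and 2 (limma adjusted p = 0.0150) and -1.82 against Controls 3 and 4 (limma adjusted p = 6.06e-08), and it was called with Control 1 or Control 2 left out (limma adjusted p = 0.0370 and 0.0420).

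The ratio of IRS1 to IRS2 was 2.65 and 2.55 in Controls 1 and 2 and 0.402 and 0.393 in Controls 3 and 4. In OGD-R it lay between 1.15 and 1.48, between the Control pairs. The sum of both substrates was 9.55, 9.79, 13.5 and 13.1 FPKM across Controls 1 to 4 and 4.44 to 4.77 FPKM in OGD-R, so it was lower in every OGD-R library than in any Control.

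**Figure D3:**
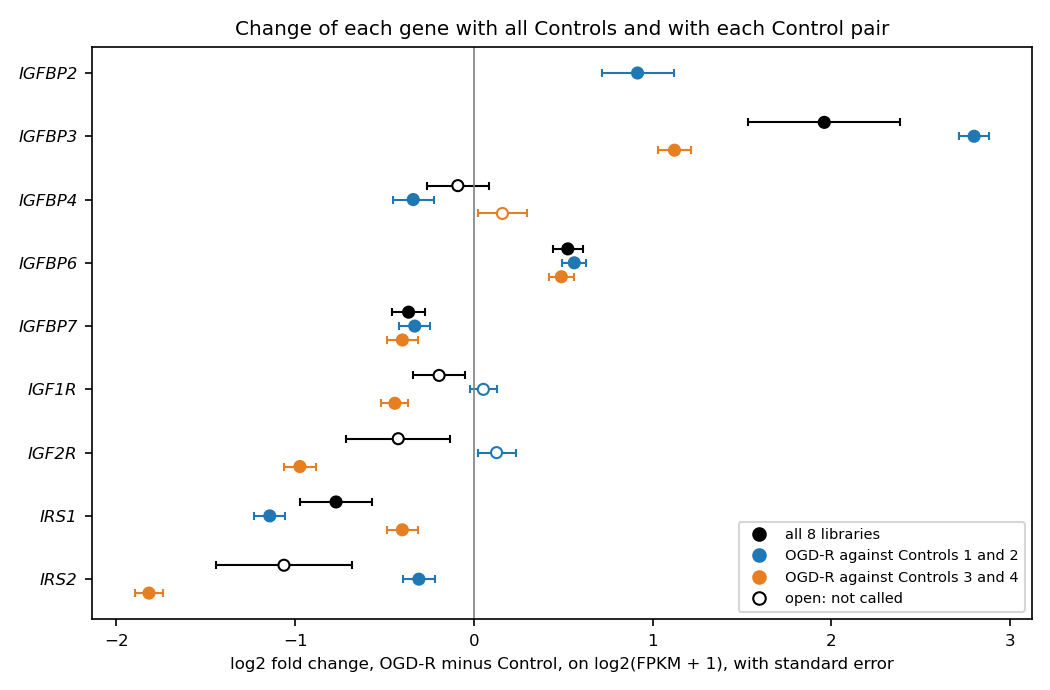
Log2 fold change of OGD-R over Control with its standard error (horizontal axis, on log2(FPKM + 1)) for 9 of the 10 genes, from all libraries and from each Control pair alone, filled where limma called it and open where not, with IGFBP2 tested against Controls 1 and 2 alone, where it reached the mean of 1 FPKM only through OGD-R. IGFBP6 and IGFBP7 gave nearly the same value against each pair, whereas IRS2 ranged from -0.31 to -1.82.

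By level in OGD-R the order was IGFBP3, IGFBP6, IGFBP7, IGF2R, IGF1R, IRS1, IRS2, IGFBP2, IGFBP4 and INSR. IGFBP7 and IGF2R overlapped, as did IGFBP2 and IGFBP4, and the other neighbours did not. In Control the order was IGFBP3, IGFBP6, IGF2R, IGFBP7, IGF1R, IRS2, IRS1, IGFBP4, INSR and IGFBP2. IGFBP3 and IGFBP6 overlapped there, as did IGF2R and IGFBP7, IRS2 and IRS1, IGFBP4 and INSR, and INSR and IGFBP2.

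The genes most like each called gene over the 8 libraries were named from Pearson's r of log2 values, as a description. For IGFBP3 these were BRWD3 (r = 0.999), a bromodomain protein, and GLUL (r = 0.999), glutamine synthetase, whose mean was 49.0 FPKM in Control and 122 FPKM in OGD-R. For IGFBP6 they were CAPN3 and TENT5B (r = 0.991 and 0.990), and for IRS1 SRPX and NAV3 (r = 0.997 and 0.994). For IGFBP7 they were MTCL1 and PYROXD1 (r = 0.972 and 0.968). CAPN3 had means of 0.413 FPKM in Control and 1.82 FPKM in OGD-R, so it reached the mean of 1 FPKM only through OGD-R. SRPX, NAV3 and MTCL1 reached it only through Control, with OGD-R means of 0.703, 0.340 and 0.799 FPKM. The 8 libraries share 2 groups and the Control pairs, and a high r was not particular to the named genes. Of 11068 genes compared, 201 had r above 0.95 with IGFBP3, 243 with IRS1 and 171 with IGFBP6, but only 4 with IGFBP7.

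Between receptors and PI3 kinase, 10 of 15 listed adaptor and feedback genes were tested, and 1 rose and 2 fell (10.2% of all genes were higher and 9.69% lower). Their median log2 fold change was -0.29. SHC1, the adaptor that links the receptors to RAS, was at 67.9, 63.0, 93.1 and 87.6 FPKM across Controls 1 to 4 and between 44.8 and 51.5 FPKM in OGD-R, and its log2 value fell by 0.70 (SE 0.14; limma adjusted p = 0.0114). SOCS3, a feedback inhibitor, was at 1.31, 1.18, 4.25 and 3.30 FPKM across Controls 1 to 4 and between 0.156 and 0.506 FPKM in OGD-R, and fell by 1.31 (SE 0.293; limma adjusted p = 0.0171). It reached the mean of 1 FPKM only through the Controls, where it was high. GRB10, an adaptor that restrains the receptors, was named after its values were seen; it was not called, at 1.63, 1.61, 12.5 and 8.37 FPKM across Controls 1 to 4 and 0.482 to 0.799 FPKM in OGD-R, wholly below. SH2B1, an adaptor that promotes insulin receptor signalling, rose from 5.30 ± 0.619 FPKM to 8.39 ± 0.687 FPKM (SD, n = 4 each), with a log2 fold change of 0.58 (limma adjusted p = 0.00592).

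Of 32 listed genes of PI3 kinase, AKT and mTOR, 29 were tested, and 3 rose, 3 fell and 23 were not called. Their shares of 10.3% higher and 10.3% lower are near those of all genes, and their median log2 fold change was -0.04. The 3 that rose were INPPL1, PIK3R3 and PIK3R1. INPPL1, the lipid phosphatase SHIP2, rose from 19.0 ± 1.34 FPKM to 31.8 ± 2.15 FPKM (SD, n = 4 each; limma adjusted p = 0.00138). The regulatory subunits of PI3 kinase PIK3R3 and PIK3R1 had log2 fold changes of 0.73 and 0.56 (limma adjusted p = 0.00392 and 0.00712). GSK3A, a kinase that AKT inhibits, fell by 0.42 on the log2 scale (limma adjusted p = 0.0147). The other two that fell, EIF4EBP1 and PIK3CD, are outside the rule for named genes and were named after their values were seen. EIF4EBP1, a translation inhibitor that mTOR inactivates, was at 45.4, 43.5, 79.3 and 83.2 FPKM across Controls 1 to 4 and between 27.1 and 35.7 FPKM in OGD-R. PIK3CD was at 1.57, 1.48, 6.61 and 6.21 FPKM across Controls 1 to 4 and between 0.537 and 0.683 FPKM in OGD-R. PIK3CD reached the mean of 1 FPKM only through the Controls, where it was high.

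Of 23 listed FOXO factors and their targets, 19 were tested, and 9 rose, 0 fell and 10 were not called by limma. That is 47.4% higher, against 10.2% of all genes, and the median log2 fold change was 0.51 against 0.02. Of the genes not called, FOXO1, CCNG2, FBXO32 and BCL2L11 had positive log2 fold changes. FOXO3, CITED2, BNIP3, GADD45A, SOD2 and TRIB1 had negative ones, the largest in TRIB1 (-1.65) and GADD45A (-1.12). TRIB1 lay wholly below the Controls (limma adjusted p = 0.0508). These uncalled genes were named after their values were seen. BCL6, a transcriptional repressor, was at 2.14, 2.03, 2.40 and 2.33 FPKM across Controls 1 to 4 and between 6.45 and 7.46 FPKM in OGD-R, its log2 fold change being 1.31 ± 0.08 (SE; limma adjusted p = 7.5e-05). ERBB3, a receptor of neuregulins, rose from 3.68 ± 0.311 FPKM to 8.75 ± 0.259 FPKM (SD, n = 4 each), and CDKN1B, the cell cycle inhibitor p27, from 9.29 ± 1.04 FPKM to 14.2 ± 0.346 FPKM (SD, n = 4 each). CAT, catalase, rose from 36.0 ± 8.10 FPKM to 67.5 ± 1.47 FPKM (SD, n = 4 each). The count depended on the Controls. Against Controls 1 and 2, 15 of the 19 were higher and 2 lower (median 0.65), where 23.0% of all genes were higher and 32.5% lower (median -0.056). Against Controls 3 and 4, 9 were higher and 6 lower (median 0.070), where 39.3% of all genes were higher and 28.5% lower (median 0.093), so the list lay near the background there. TNFSF10 and PDK4, named after their values were seen, had the largest log2(FPKM + 1) increases among the tested genes of the list, from 1.59, 3.44, 8.39 and 10.2 FPKM across Controls 1 to 4 to between 29.2 and 36.2 FPKM for TNFSF10, and from 0.684, 0.773, 3.28 and 3.27 FPKM to between 8.92 and 11.1 FPKM for PDK4.

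**Figure D4:**
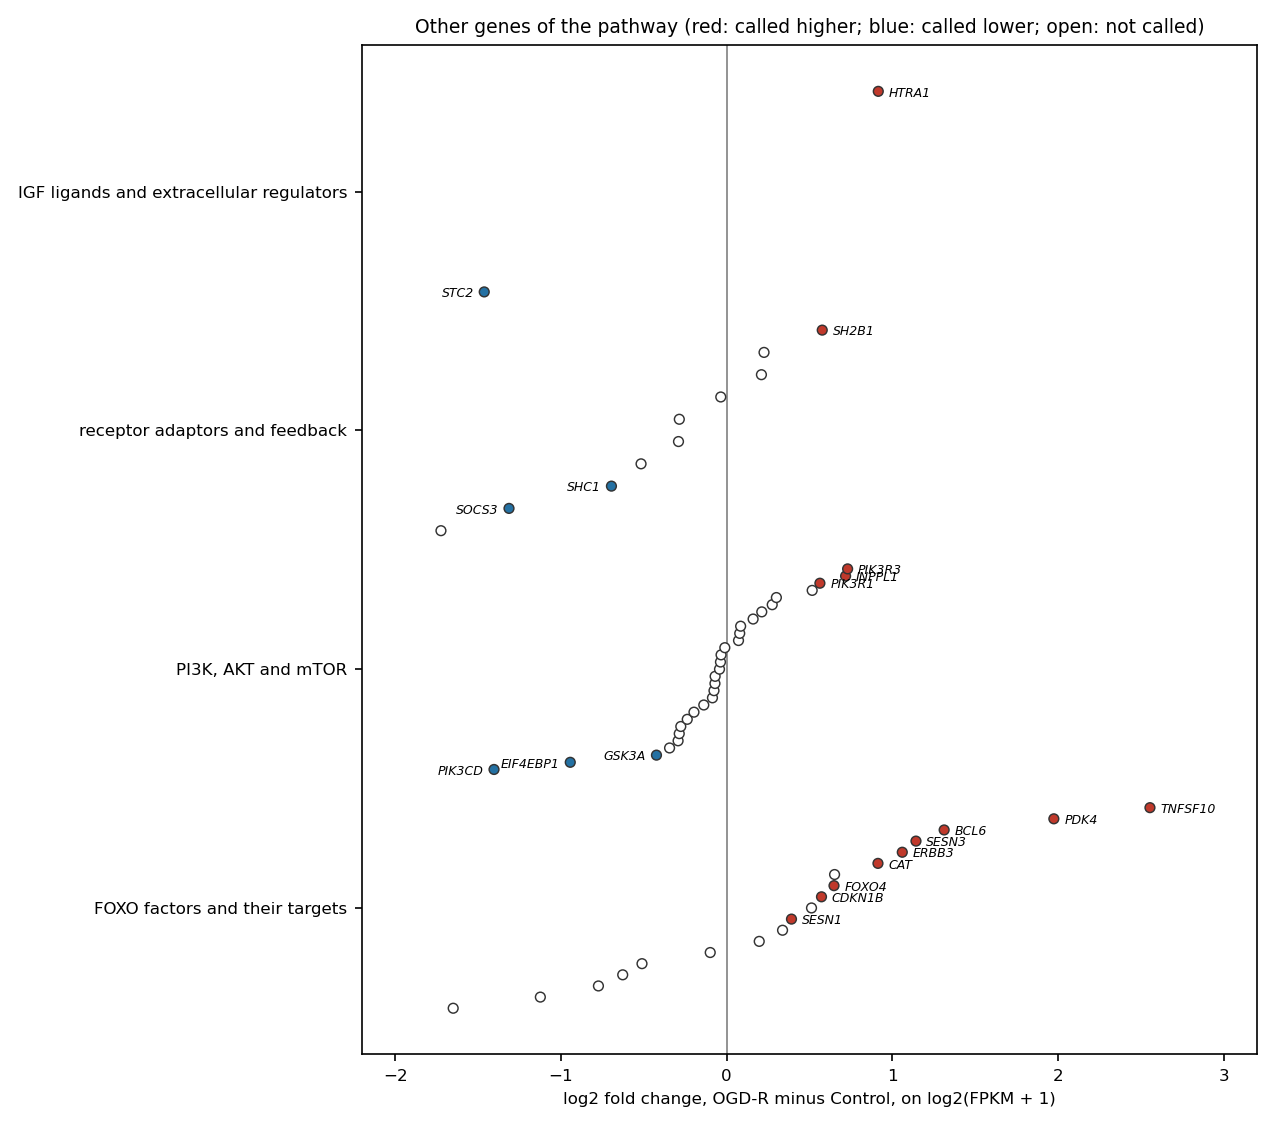
Log2 fold change of OGD-R over Control (horizontal axis, on log2(FPKM + 1)) for the tested genes of 4 lists, where each point is a gene, red where limma called it higher, blue where lower and open where not called. The PI3 kinase list lay around 0 with a median of -0.04, and 9 of 19 genes of the FOXO list were called higher.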

How the data were processed

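RNA from HaCaT cells was sequenced in 8 libraries, whose titles give the groups. Total RNA was the input and both a NEBNext and a SMARTer kit are named, per the labels' protocols. Aligner, counting tool and genome build were not given in the sources used here. For each library the authors deposited 1 table of gene ID, symbol and value, with no unit named. The values the authors deposited were read as FPKM, already scaled by gene length and library total. Of 117 to 147 low values per library among 944 single-exon genes, 11 to 18 lay within 0.5% of a common amount once multiplied by gene length, taken as 1 fragment. The unit and the depths rest on these few values. The Control 3 table heads its value column with another name than its title, and was assigned by its sample record. FPKM divides by the library total, so a group of genes that takes a large share lowers all others.

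The 8 libraries were compared with limma (version 3.58.1, R 4.3.3, intensity trend) on log2(FPKM + 1), a scale that understates the change of low genes, for the 11740 genes whose mean reached 1 FPKM, with Benjamini-Hochberg adjustment over all of them. The script was tested on simulated data whose libraries varied independently, without the Control pairs seen here. Members and lists were chosen with earlier results of these data known. Beside the 10 members, the rule for named genes took up to 4 called genes of smallest p per list, 5 ligand or binding protein genes, KRT5, KRT14 and the 2 genes most alike to each called member. Gene positions are those of GENCODE 29, matched by ID, and promoters come from RefSeq. Alternatives covered filters, pseudocounts, trend, replicate block, scalings and libraries left out. The count tests foreseen were not used on FPKM. Python 3.11.15 and matplotlib 3.10.9 served for tables and plots.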

Additional observations from a re-analysis of the deposited data

Results flagged for a closer look

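Values of 23 named genes were checked for a library that stands apart within its group of 4, by the gap to its neighbour over the group's range, against Dixon's critical value for 4 libraries. In 46 such groups 2 libraries passed it, and chance marks about 1 group in 20. IGF2R in OGD-R 1 was at 20.3 FPKM, whereas the other OGD-R libraries lay between 16.6 and 17.1 FPKM, a gap of 0.853 of the range. SH2B1, the receptor adaptor, was at 6.23 FPKM in Control 2 and between 4.96 and 5.03 FPKM in the other Controls, a gap of 0.947 of the range.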

How the results depend on the processing

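IGFBP3 and IGFBP6 kept their direction and their call by limma under all 18 alternatives; leaving out 1 library at a time gave log2 fold changes of 1.68 to 2.25 and 0.49 to 0.56. The lower calls were less stable. Members called lower were 2 of 8 tested with all libraries, 4 of 9 without Controls 3 and 4 and 5 of 8 without Controls 1 and 2. Of all genes tested, 9.69%, 32.5% and 28.5% were called lower in those fits. The count was 1 with a mean of at least 5 FPKM, where IRS1 was no longer tested and IGFBP7 kept its call (limma adjusted p = 0.0228). It was also 1 scaled without mitochondrial genes, where 870 of all genes were called lower. The count was 0 to 3 with single libraries left out (0 without OGD-R 1, OGD-R 2 or OGD-R 4). Without OGD-R 1, OGD-R 2 or OGD-R 4, 669, 586 and 630 of all genes were called lower, against 1138 with all libraries. Directions that turned were all of genes not called: IGFBP4 was at 0.16 without Controls 1 and 2 and ranged from -0.24 to 0.012 with single libraries left out, and without Controls 3 and 4 IGF1R was at 0.053 and IGF2R at 0.13.

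The listed pathway genes tested were 2 extracellular, 10 adaptor and feedback, 29 PI3 kinase, AKT and mTOR and 19 FOXO genes. Of these, 14 were higher and 6 lower. With a mean of at least 5 FPKM 8 were higher, but fewer listed genes were tested, and the called genes PIK3R1 and BCL6 were among those left out. With all libraries the shares of all genes were 10.2% higher and 9.69% lower. Without Controls 3 and 4, 25 were higher and 13 lower, where 23.0% of all genes were higher and 32.5% lower. Without Controls 1 and 2, 21 were higher and 21 lower, where 39.3% of all genes were higher and 28.5% lower. With single libraries left out, 11 to 15 were higher and 2 to 8 lower. Over all genes 1202 were higher and 1138 lower, 689 higher with a mean of at least 5 FPKM (fewer genes tested), 2700 and 3808 without Controls 3 and 4, 4636 and 3360 without Controls 1 and 2, and 700 to 1448 higher and 565 to 1321 lower with single libraries left out, with the lowest counts when any OGD-R library was dropped. The cause of the other shifts was not tested.

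Replicate numbers are shared between groups. Deviations of same-numbered libraries from their group mean correlated at 0.0450, 0.0646, 0.0578 and 0.0585 across genes. Controls 1 and 2 correlated at 0.0450 to 0.109 with OGD-R 1 and 2 and at -0.106 to -0.0276 with OGD-R 3 and 4. Controls 3 and 4 correlated at 0.0530 to 0.113 with OGD-R 3 and 4 and at -0.0871 to -0.0268 with OGD-R 1 and 2. These values are small but follow the Control pairs. Deviations from a group mean cancel within the group, so positive and negative correlations must occur together and are not independent. Whether the numbers pair the libraries was not tested. With a replicate block 625 genes were higher and 507 lower, 0 members were lower (IGFBP7 adjusted p = 0.0876, IRS1 0.0594, limma) and 1 listed gene was lower. Few fragments stand behind IGFBP2, at most 14.7 in any Control, which limits its precision.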
